A study of Homo sapiens with 87 samples.

Results

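The libraries compared here came from a HAP1 clone in which SMARCD2 had been knocked out (clone 2782-10) and from wild-type HAP1 cells (clone C631). They were chosen by these labels, 3 libraries of each, and are 6 of the 87 samples in the series. HAP1 is a human cell line that carries nearly all chromosomes as single copies and descends from a chronic myeloid leukaemia cell, and no drug or other treatment is named for either group. RNA with poly-A tails went into strand-specific libraries, of which 50 bases were read from a single end. Each genotype is represented by 1 clone, so the knockout and the history of the clone cannot be told apart, and the labels do not say whether separate cultures lie behind the 3 libraries of a group. The p-values below therefore measure only the spread between libraries. For comparison, the same count table holds 69 libraries of 23 other HAP1 knockout clones of BAF genes, among them SMARCD1 knockout (clone 2478-6) and SMARCD3 knockout (clone 2480-12), each with 3 libraries.

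BAF, the mammalian SWI/SNF complex, remodels chromatin: it spends ATP to slide or evict nucleosomes and so opens promoters and enhancers. SMARCD2 encodes BAF60B, which shares its place in the complex with the products of the paralogs SMARCD1 (BAF60A) and SMARCD3 (BAF60C), so that a complex carries a member of this family chosen from alternatives. The family links the core of the complex to transcription factors. SMARCD2 is best known from the blood, where its loss in people and in mice blocks the maturation of neutrophil granulocytes together with the factor CEBPE.

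SMARCD2 mRNA was measured first, since it checks the label. In CPM, counts scaled to the library total in the usual way, the SMARCD2 knockout libraries held 19.9, 24.9 and 26.2 CPM, against 89.6, 89.4 and 78.6 CPM in wild type. The groups did not overlap, and the log2 fold change was -1.86 (standard error, SE, 0.0927, adjusted p = 4.94e-24, edgeR quasi-likelihood test with Benjamini-Hochberg adjustment, as for every adjusted p below). Transcript therefore remained, with 425 to 526 counts per knockout library. Protein was not analysed here. The mean of 23.7 CPM in the SMARCD2 knockout lay below the mean of each of the 23 other clones, whose lowest was 66.8 CPM in ARID2 knockout and whose highest was 97.0 CPM. Of the 10 tested genes nearest to SMARCD2 in RefSeq gene order, 5 on each side, none was called. PSMC5, the proteasome ATPase gene next to it, had a log2 fold change of -0.03 (adjusted p = 0.96), and ERN1, a sensor of unfolded proteins on the other side, had 0.00 (adjusted p = 0.994).

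The paralogs did not pass the test. SMARCD1 stood at 103, 92.8 and 119.9 CPM in the SMARCD2 knockout and at 89.4, 112.6 and 92.1 CPM in wild type (log2 fold change 0.10, SE 0.14, adjusted p = 0.813). SMARCD3 stood at 22.9, 25.7 and 25.1 CPM against 25.2, 25.8 and 30.5 CPM (-0.15, SE 0.143, adjusted p = 0.683). The ranges overlapped for SMARCD1 and for SMARCD3. On the authors' deposited scale, labelled log2 TPM, wild type held SMARCD1 at 6.61 ± 0.175 (standard deviation, SD, n = 3), SMARCD2 at 6.42 ± 0.087 and SMARCD3 at 4.78 ± 0.173. The order of the genes was that seen in CPM. Whether the deposited values correct for transcript length was not tested, so levels of different genes may not be comparable. In the SMARCD2 knockout the log2 TPM level of SMARCD2 was 4.56 ± 0.206, close to the 4.62 ± 0.077 of SMARCD3, and SMARCD1 had the highest value of the family at 6.71 ± 0.194.

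**Figure D1:**
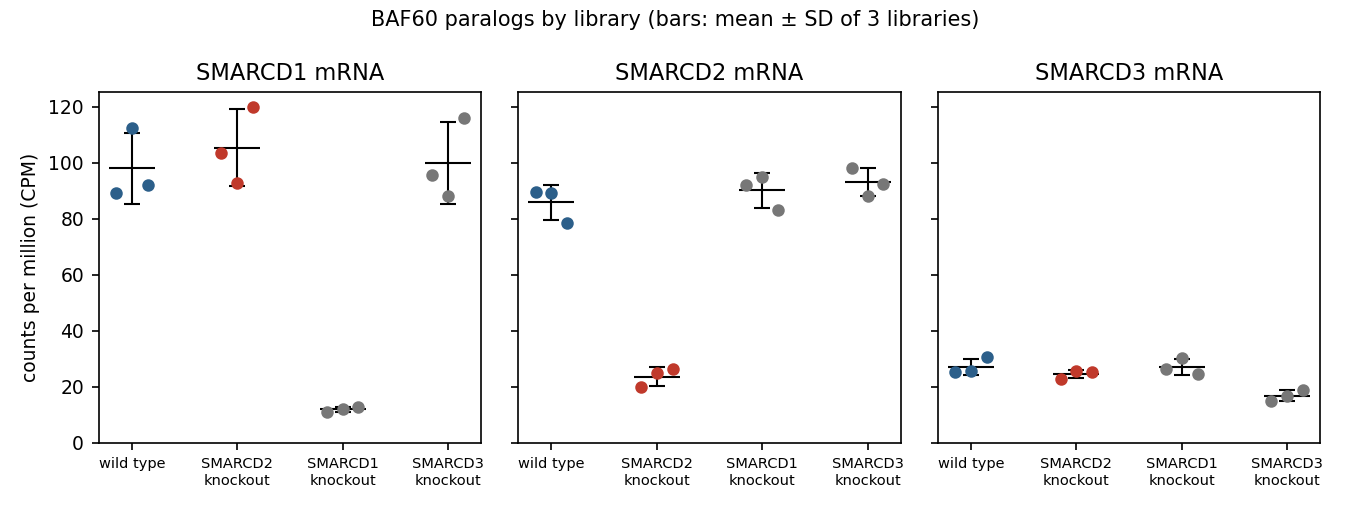
CPM of SMARCD1, SMARCD2 and SMARCD3 (panels; vertical axis from 0) in the libraries of wild type and of the knockouts of each paralog; points are libraries and bars the mean ± SD of 3 libraries. SMARCD2 falls from a mean of 85.9 to 23.7 CPM in its own knockout, and the libraries of the SMARCD2 knockout and wild type overlap for SMARCD1 and SMARCD3.

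Of 30 tested BAF and PBAF subunit genes, SMARCD2 was the only 1 called, and the median log2 fold change of the list was -0.04. A gene is called here when its adjusted p is at most 0.05 and its log2 fold change at least 1 in size. BCL11A, a zinc-finger subunit of neural and blood cells, passed the test on p alone with -0.63 (adjusted p = 0.0149), as did SS18L1, the CREST subunit of neuronal BAF, with -0.44 (adjusted p = 0.00971). The ATPase genes SMARCA4 (-0.08, adjusted p = 0.846) and SMARCA2 (0.44, adjusted p = 0.232) did not.

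Library totals ranged from 17847158 to 22243858 counts in the 6 libraries and from 14917644 to 29993652 over all 75 libraries of the table. Of 35438 listed genes, 16159 passed the filter on low counts and were tested. Against wild type, 232 genes were called up (1.44% of those tested) and 220 down (1.36%), together 2.8%. Without the fold threshold 1151 genes passed (7.12%), 654 of them higher and 497 lower. The median log2 fold change of all tested genes was -0.0066. Most called genes were of low abundance: the median level in the group where they were higher was 4.03 CPM for genes called up and 2.29 CPM for genes called down. With changes of 3 or more on the log2 scale there were 52 genes called down and 18 called up. Libraries of the groups did not overlap for 228 of the genes called up and 215 of those called down; over all genes tested this held for 3671 (22.7%). Because the RNA came from whole cultures, fewer cells that express a gene and less RNA per cell cannot be told apart.

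**Figure D2:**
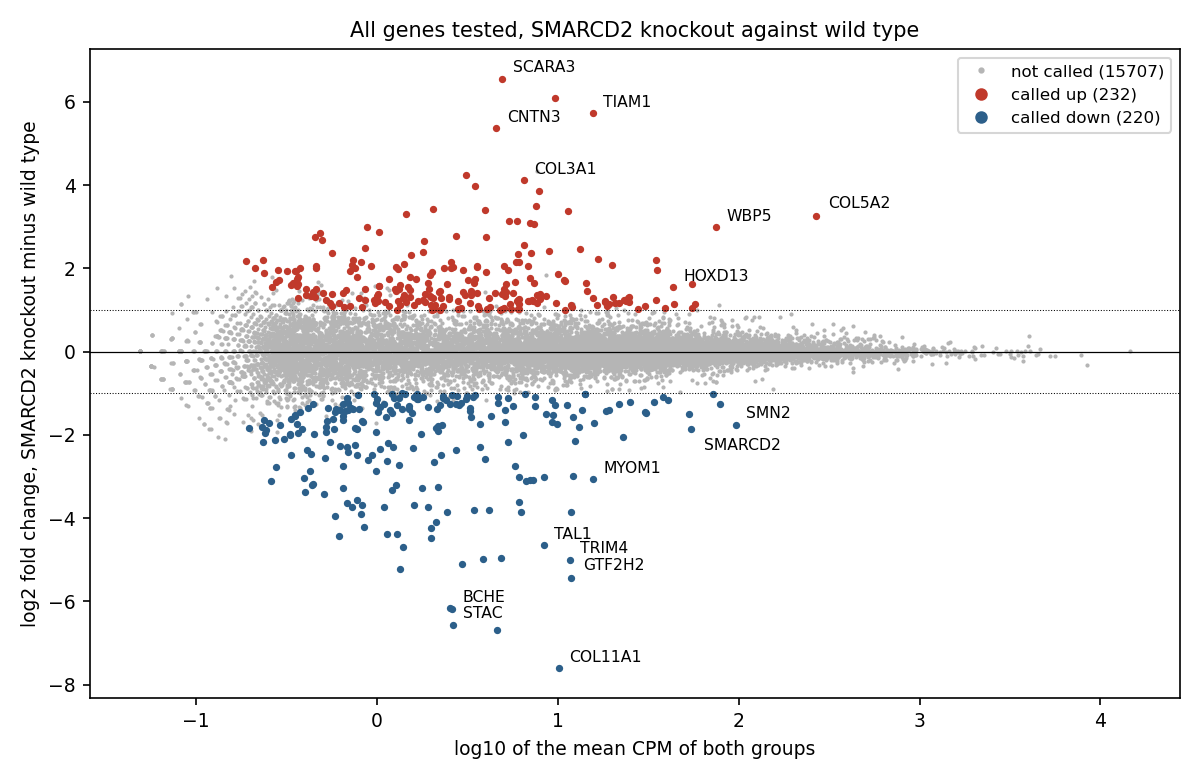
Each point is 1 of 16159 tested genes, by the log10 of its mean CPM over both groups (horizontal) and its log2 fold change, SMARCD2 knockout minus wild type (vertical); dotted lines mark the fold threshold. The 232 genes called up and 220 called down lie mostly at low CPM, and COL5A2 stands out as a called gene of high abundance.

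Promoters are shown for 5 of the genes that moved furthest, so that the range of promoter types among them can be seen: CNTN3 and TIAM1 rose, and STAC, BCHE and GTF2H2 fell. Each line gives the 200 bases before the annotated start from RefSeq (GRCh38.p14), 5′ to 3′ on the strand of the gene, with every CG dinucleotide in capitals. The windows are chr3:74614660-74614859 (minus strand), chr21:31559088-31559287 (minus strand), chr3:36380304-36380503 (plus strand), chr3:165837424-165837623 (minus strand) and chr5:71067677-71067876 (minus strand).
CNTN3: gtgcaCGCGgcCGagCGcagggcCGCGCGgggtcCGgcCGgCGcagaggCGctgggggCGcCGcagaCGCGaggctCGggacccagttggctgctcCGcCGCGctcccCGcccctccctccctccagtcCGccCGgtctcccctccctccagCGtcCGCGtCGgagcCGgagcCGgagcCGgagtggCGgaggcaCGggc
TIAM1: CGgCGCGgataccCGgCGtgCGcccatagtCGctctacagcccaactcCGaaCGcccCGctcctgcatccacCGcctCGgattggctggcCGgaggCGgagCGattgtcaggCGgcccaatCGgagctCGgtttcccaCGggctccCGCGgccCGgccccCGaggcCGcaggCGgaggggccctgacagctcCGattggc
STAC: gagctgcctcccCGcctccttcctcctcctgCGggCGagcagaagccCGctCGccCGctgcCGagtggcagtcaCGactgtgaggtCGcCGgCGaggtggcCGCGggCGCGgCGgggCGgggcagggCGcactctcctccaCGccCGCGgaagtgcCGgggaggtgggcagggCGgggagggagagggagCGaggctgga
BCHE: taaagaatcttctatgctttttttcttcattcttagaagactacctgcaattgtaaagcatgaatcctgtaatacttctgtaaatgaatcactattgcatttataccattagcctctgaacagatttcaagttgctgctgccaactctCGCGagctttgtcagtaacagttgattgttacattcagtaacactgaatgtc
GTF2H2: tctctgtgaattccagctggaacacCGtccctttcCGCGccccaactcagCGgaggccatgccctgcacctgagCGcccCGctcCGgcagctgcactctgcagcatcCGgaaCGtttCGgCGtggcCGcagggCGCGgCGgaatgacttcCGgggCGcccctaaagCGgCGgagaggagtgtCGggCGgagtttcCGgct
CNTN3, TIAM1, STAC and GTF2H2 have promoters dense in CG, with 31, 26, 24 and 22 CG dinucleotides in the printed bases, whereas BCHE has 2. Over the 300 bases of the RefSeq window they hold 43, 46, 34, 32 and, for BCHE, 2; the median over the 11596 tested genes with an entry is 26 (range 0 to 69), and over all 27305 promoters of that length in the table it is 14 (range 0 to 77). Only 168 of the 232 genes called up, 160 of the 220 called down and 11596 of the 16159 tested matched an entry. With so many genes lacking one, a comparison of promoter content between these sets is void and is not given.

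The genes that rose most included 2 fibrillar collagens. COL5A2, an alpha chain of type V collagen, was the most abundant of the 15 named genes called up and stood at 489, 476 and 483 CPM in the SMARCD2 knockout against 42.8, 48.7 and 59.1 CPM in wild type. All 3 knockout libraries lay far above wild type and close to each other (log2 fold change 3.26, SE 0.111, adjusted p = 2.11e-31). COL3A1, the chain of type III collagen, lies beside it in gene order and went from 0.56, 0.54 and 0.994 CPM to 12.1, 12.4 and 12.5 CPM (log2 fold change 4.11, SE 0.26, adjusted p = 1.6e-19). For COL5A2 no other clone had a mean above that of the SMARCD2 knockout, the next being 398 CPM in SMARCA4 knockout clone 2878-6; for COL3A1 the SMARCA4 clones had means of 12.36 and 22.03 CPM against 12.31 CPM here.

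SCARA3, a scavenger-receptor family gene, rose from near the minimum of the table. Wild-type libraries held 4, 1 and 1 counts and SMARCD2 knockout libraries 177, 238 and 181 counts, a ratio of summed counts of 101 (95% exact counting interval 46.1 to 276). CNTN3, a contactin of neural cell adhesion whose promoter is shown above, went from 4, 4 and 5 counts to 149, 163 and 233 counts (ratio 42.6, interval 24.7 to 80.5). Neither gene exceeded 1 CPM in the mean of any other clone: the highest were 0.134 CPM for SCARA3 and 0.531 CPM for CNTN3, against 9.77 and 8.93 CPM in the SMARCD2 knockout. Against the mean of the other clones, the log2 difference was 6.90 for SCARA3 (SE 0.116, adjusted p = 3.57e-48) and 6.87 for CNTN3 (SE 0.0881, adjusted p = 1.67e-54).

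TIAM1, an exchange factor that activates the GTPase RAC1, went from 0.84, 0.494 and 0.407 CPM to 34.8, 28.6 and 28.2 CPM (log2 fold change 5.73, SE 0.247, adjusted p = 9.65e-27). It was not high in this clone alone, since BCL7B knockout and SMARCA4 clone 2878-4 had means of 39.96 and 40.4 CPM, while the median of the other clones was 0.44 CPM. WBP5, a small X-linked gene of the TCEAL group, rose from a mean of 16.9 ± 2.8 to 133.7 ± 1.77 CPM (SD, n = 3; log2 fold change 2.98, SE 0.131, adjusted p = 2.24e-26). Similar WBP5 means were seen in the BRD7 (140.6 CPM), PHF10 (133.3 CPM), PBRM1 (127.5 CPM) and ARID2 (123.0 CPM) knockouts. In 12 of the 23 other clones the WBP5 mean was below 0.5 CPM. FCGRT, the heavy chain of the neonatal Fc receptor, rose from 1.99 ± 0.487 to 20.9 ± 2.38 CPM and was highest in this clone of all 25 groups. Further genes among the 15 called up with the largest folds were KCTD11, a ubiquitin-ligase adaptor (3.86), GSTM2, a glutathione transferase (3.51), DCAF12L2 (3.41), SHISA2, an inhibitor of FGF and WNT receptors (3.14), the imprinted Notch-ligand relative DLK1 (3.13), the neuronal kinesin KIF5A (3.08) and the growth-cone gene GAP43 (3.07), all with log2 fold changes over wild type. GSTM2 has near relatives, so reads shared among them make its level uncertain. Of these further genes only DCAF12L2 was highest in the SMARCD2 knockout. Higher means included 22.1 CPM for GSTM2 in BRD9 knockout, 29.8 CPM for SHISA2 in PHF10 knockout and 36.0 CPM for DLK1 in ARID1A clone 618-10. The KCTD11 mean was above that of wild type in 20 of the 23 other clones.

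The largest decrease was that of another collagen. COL11A1, a chain of type XI collagen, held 346, 425 and 492 counts in the wild-type libraries and 3, 1 and 2 counts in the SMARCD2 knockout libraries (wild type over knockout 207, interval 95 to 566). STAC, an adaptor that binds voltage-gated calcium channels, stood at the table's minimum of 1 count in all 3 knockout libraries and at 117, 105 and 95 counts in wild type. Taking 3 counts per library as the floor, STAC was at least 35.3-fold lower. BCHE, the serum enzyme butyrylcholinesterase, had 1, 2 and 1 counts against 93, 106 and 121 (ratio 78.8, interval 30.5 to 291). These genes went from clear expression to the floor of the assay; of their promoters, those of STAC and BCHE are shown above and differ in CG content. All were near the minimum in other clones too. COL11A1 had a mean below 0.5 CPM in 15 of the 23 other clones, whose median was 0.151 CPM, and only 7 of them exceeded the wild-type mean of 20.2 CPM. STAC was below 0.5 CPM in 9 of the other clones (median 7.39 CPM) and BCHE in 6 (median 14.1 CPM).

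CNTNAP2, a neurexin-family adhesion gene, fell from 174, 183 and 206 counts to 1, 3 and 1 (ratio 111, interval 47.2 to 343), and 11 of the 23 other clones had means below 0.5 CPM. PXDN, which encodes peroxidasin, an enzyme that cross-links collagen IV, fell from 64, 94 and 161 counts to 2, 1 and 1 (ratio 78.5, interval 30.4 to 290). The level of PXDN in wild type was itself high for this set, since 22 of the 23 other clones had lower means. Against the mean of the other clones the SMARCD2 knockout had a log2 difference of -0.87 (SE 0.483, adjusted p = 0.50), which was not called. BAI3, an adhesion G-protein-coupled receptor gene, fell from 5.88, 5.84 and 5.56 CPM to 0.0469, 0.302 and 0.149 CPM and was lower in this clone than in any other (log2 fold change -5.09, SE 0.273, adjusted p = 1.28e-22). The SMARCC1 knockout was also low for BAI3, with a mean of 0.457 CPM. TAL1, a transcription factor of blood stem and red cells, fell from 20.1, 12.4 and 15.9 CPM to 0.469, 0.553 and 0.897 CPM (-4.65, SE 0.219, adjusted p = 4.44e-25). Among the other clones TAL1 ranged from 0.585 to 67.1 CPM, and the SMARCC1 and SMARCD1 clones were as low as this one.

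TRIM4, a RING-type ubiquitin ligase, varied little among the other clones. It fell from 22.4, 25.2 and 20.1 CPM to 0.469, 0.805 and 0.847 CPM (log2 fold change -5.00, SE 0.182, adjusted p = 4.12e-30). The means of the 23 other clones all lay between 16.04 and 26.12 CPM, so that no other clone came near the level of the SMARCD2 knockout (log2 difference from their mean -4.85, SE 0.165, adjusted p = 1.46e-32). ZNF492, a zinc-finger gene with close relatives, fell by 3.86 on the log2 scale to 0.806 ± 0.269 CPM, below the lowest other clone at 2.05 CPM. The rest of the 15 called down with the largest folds were EFS, a docking protein of integrin signalling (log2 fold change -4.99), the F-box gene FBXO17 (-4.97), the splicing regulator CELF2 (-3.85), the dystrophin-associated syntrophin SNTB1 (-3.80) and the phosphodiesterase PDE10A (-3.79). For EFS, 11 other clones had means below that of the SMARCD2 knockout.

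**Figure D3:**
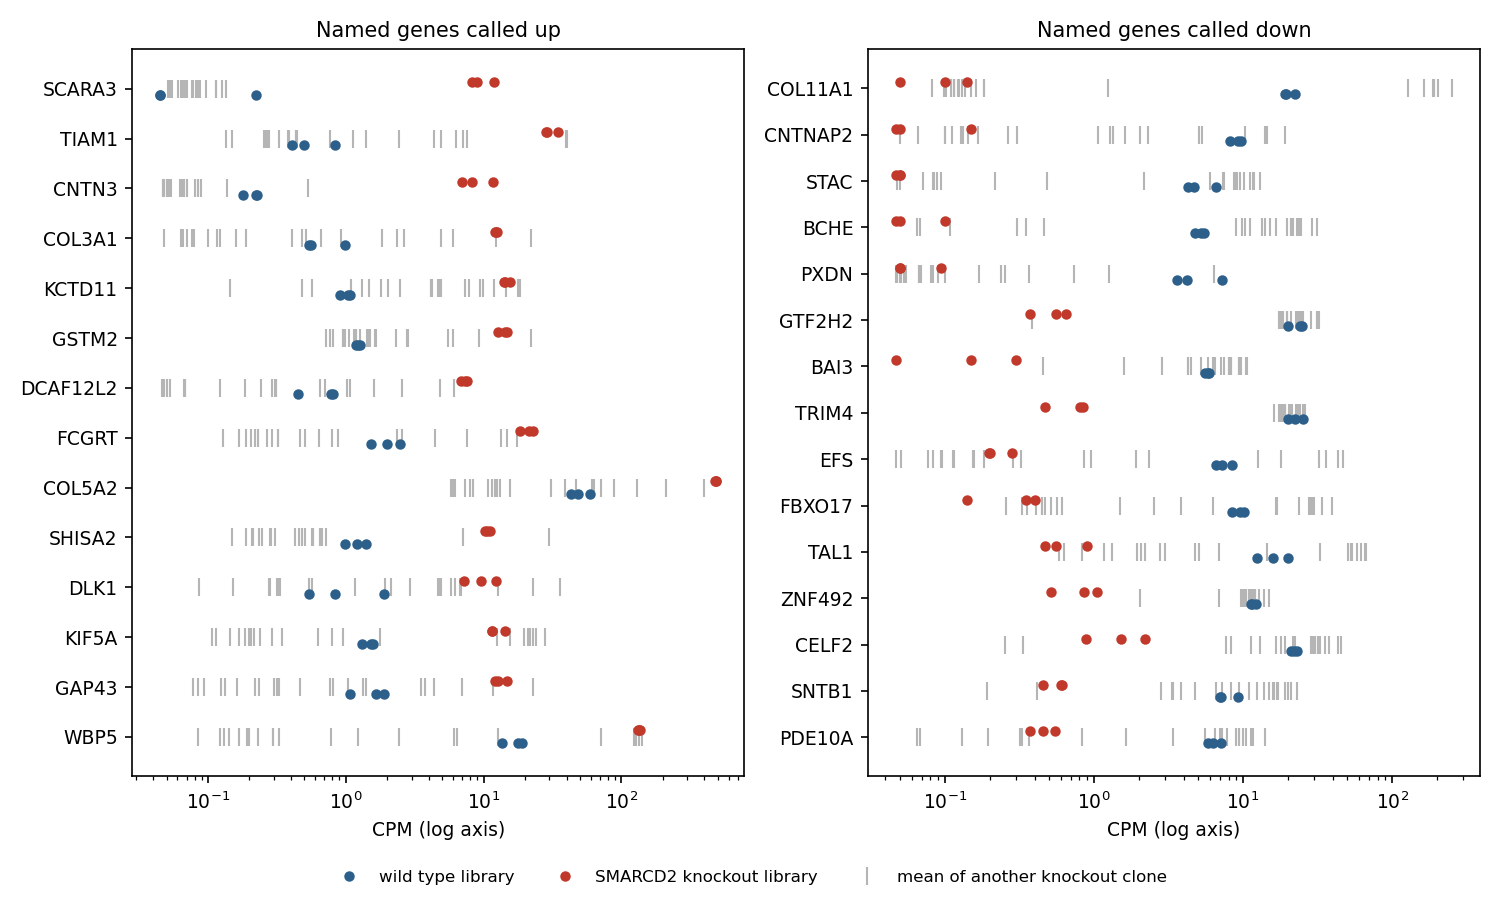
CPM on a log axis of the named genes called up (left) and called down (right); red points are SMARCD2 knockout libraries, blue points wild-type libraries and grey ticks the means of the 23 other knockout clones. SCARA3 and CNTN3 stand clear of all grey ticks above and TRIM4 below, whereas TIAM1 and COL11A1 have grey ticks on or beyond the red points. For BAI3 all grey ticks lie above the red points, but the lowest, at 0.457 CPM in SMARCC1 knockout, is close to them.

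GTF2H2, which encodes the p44 subunit of the transcription and repair factor TFIIH, fell from 22.97 ± 2.58 CPM in wild type (SD, n = 3) to 0.375, 0.553 and 0.648 CPM in the SMARCD2 knockout, where 8, 11 and 13 counts were left. The libraries were far apart (log2 fold change -5.45, SE 0.264, adjusted p = 1.52e-24). GTF2H2 lies in a segment of duplicated genes, and the genes around it were examined after their values had been seen. GTF2H2B, a copy of it, fell from 14.2, 7.87 and 11.7 CPM to 0.563, 1.16 and 1.05 CPM (-3.61, SE 0.599, adjusted p = 9.52e-06). SMN2, a survival motor neuron gene for the assembly of splicing particles, fell from 153, 160 and 132 CPM to 57.1, 38.1 and 36.6 CPM (-1.75, SE 0.0981, adjusted p = 8.52e-22), and SERF1B fell by 1.17 on the log2 scale (SE 0.154, adjusted p = 4.22e-08). In each of these 4 genes the knockout and wild-type libraries did not overlap.

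Other copies in the segment moved less or did not pass the test. GTF2H2C passed on p alone at 26.6 ± 1.44 against 44.8 ± 2.34 CPM (log2 fold change -0.76, adjusted p = 3.49e-07). SMN1 (-0.64, adjusted p = 0.226), SERF1A (-0.76, adjusted p = 0.248) and NAIP, an inflammasome receptor gene (-0.80, adjusted p = 0.0771), were not called, although NAIP was called without knockout library 2 (-1.13, adjusted p = 0.0206). The genes beyond the duplicated segment in RefSeq order showed no called change, with log2 fold changes of 0.29 for the tight-junction gene OCLN (adjusted p = 0.58), -0.11 for BDP1 (0.761) and -0.01 for MCCC2 (0.964). Of the 23 other clones, 22 had a higher GTF2H2 mean, between 17.4 and 32.4 CPM, and BRD7 knockout alone was also low, at 0.386 CPM. BRD7 knockout was also the nearest clone for the other called genes of the segment: its means were 47.55 against 43.95 CPM here for SMN2 (next clone 111.2 CPM), 0.969 against 0.922 CPM for GTF2H2B (next 9.62 CPM) and 6.63 against 5.75 CPM for SERF1B (next 10.27 CPM). Low levels of these genes were thus seen in the BRD7 knockout as well. How reads were divided among these near-identical copies is not given in the sources used here, so the level of each copy is uncertain; DNA copy number was not analysed here, and its part in the result was not tested.

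**Figure D4:**
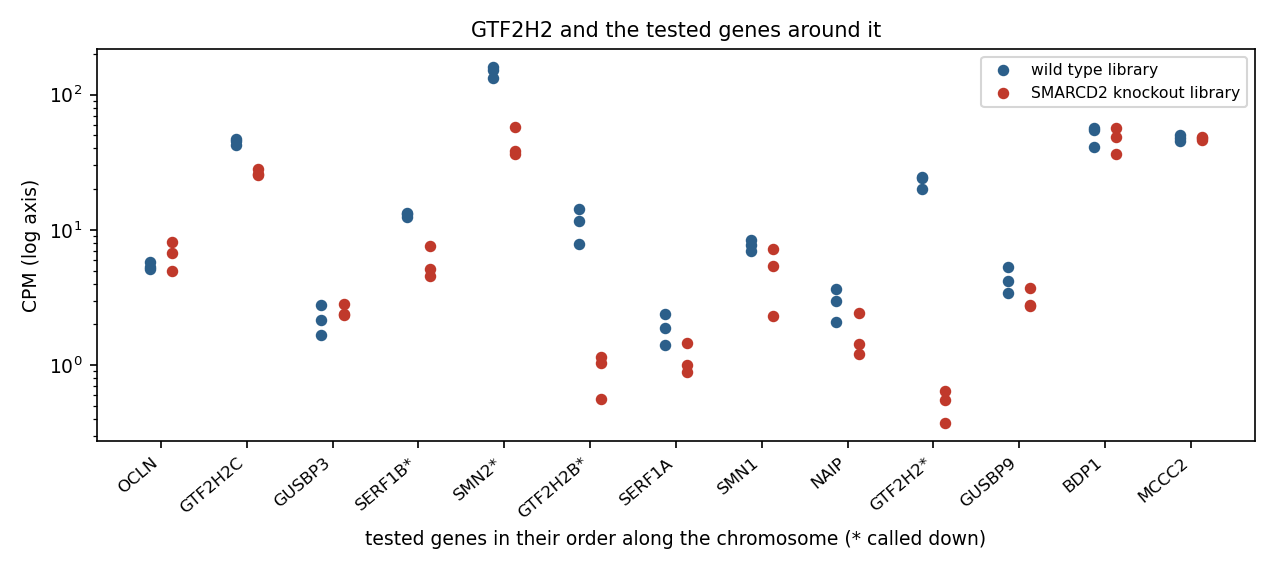
CPM on a log axis of 13 tested genes in RefSeq order around GTF2H2; red points are SMARCD2 knockout libraries, blue points wild-type libraries, and stars mark genes called down. GTF2H2, GTF2H2B, SMN2 and SERF1B are lower in every knockout library, while OCLN, BDP1 and MCCC2 at the ends overlap or coincide.

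The SMARCD2 knockout was also compared with the equal-weight mean of the 23 other knockout clones, a contrast that uses no wild-type library. Its p-values do not measure the spread between those clones, so a call does not place this clone outside their range. COL11A1 was called down in this contrast (log2 difference -3.66, adjusted p = 2.27e-20), although 15 of those clones had means below 0.5 CPM. In all, 329 genes were called up (2.04%) and 251 down (1.55%), together 3.59%. It shares the SMARCD2 knockout libraries with the comparison against wild type, so overlap between the calls is in part built in. Of the 232 genes called up against wild type, 170 were also called up against the other clones and 62 were not called. Of the 220 called down, 151 were also called down, 65 were not called and 4 were called the other way. TCEAL8, an X-linked gene of the TCEAL group, is 1 of those 4 (chosen after its values were seen). It fell from a wild-type mean of 3.91 CPM to 0.328, 0.453 and 0.448 CPM. Yet it lay 1.57 on the log2 scale above the mean of the other clones (adjusted p = 9.93e-05), whose median was 0.0813 CPM. In 20 of the 23 other clones the TCEAL8 mean was below 0.5 CPM, where fitted differences depend on the prior count. Higher TCEAL8 means than here were seen in ARID1A clone 618-10 (25.0 CPM), SMARCA4 clone 2878-4 (1.49 CPM) and BCL7B knockout (0.926 CPM). For 49 genes called up the mean exceeded those of wild type and of all other clones, and for 40 genes called down it lay below all of them.

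The genes with the largest differences from the other clones that were also called against wild type repeated many of those above. Beyond them, NMNAT2, an enzyme of NAD synthesis that protects axons, held 8.68, 10.7 and 11.0 CPM in the SMARCD2 knockout against 1.85, 2.07 and 2.03 CPM in wild type. It lay 5.72 on the log2 scale above the other clones (SE 0.106, adjusted p = 5.6e-46), of which the highest had a mean of 6.31 CPM. SLC10A2, the bile acid transporter of the ileum, held 8.72, 7.75 and 8.77 CPM against 1.18, 2.79 and 2.40 CPM and was 4.82 above the other clones (SE 0.133, adjusted p = 3.0e-37); no other clone exceeded 2.12 CPM. MYOM1, a muscle M-band gene, fell from 24.1, 33.5 and 25.9 CPM to 2.63, 3.12 and 4.34 CPM and lay 3.73 below the other clones (log2 difference -3.73, SE 0.177, adjusted p = 1.18e-25). Apart from BRD7 knockout at 2.73 CPM, every other clone had a higher MYOM1 mean.

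The clones of the paralogs gave a closer comparison, because the proteins take the same place in the complex. The SMARCD2 knockout differed from the SMARCD1 knockout by 580 genes called up (3.59%) and 485 down (3%), 6.59% together, and from the SMARCD3 knockout by 519 (3.21%) and 553 (3.42%), 6.63% together. COL11A1 showed the widest gap among the named genes, with 0.0969 ± 0.0453 CPM in the SMARCD2 knockout, 252 ± 14.6 CPM in the SMARCD1 knockout and 188 ± 8.56 CPM in the SMARCD3 knockout (log2 differences -11.21 and -10.78, adjusted p = 9.41e-53 and 8.9e-52). COL5A2 ran the other way, with 483 ± 6.35 CPM against 5.79 ± 0.241 and 6.09 ± 0.634 CPM (6.40 and 6.34, adjusted p = 1.1e-42 and 8.31e-43). GAP43 stood at 13.2 ± 1.36 CPM against 0.0844 ± 0.025 and 0.0937 ± 0.0436 CPM, and BCHE at 0.0658 ± 0.0302 CPM against 16.6 ± 0.132 and 28.8 ± 3.21 CPM. Such levels were not limited to the paralog clones. The BCL11A and BCL11B knockouts had means of 191 and 204 CPM for COL11A1 and of 6.21 and 6.00 CPM for COL5A2. Their means were 0.162 and 0.236 CPM for GAP43 and 20.8 and 21.7 CPM for BCHE. For a few genes the paralog clones lay near the SMARCD2 clone. KCTD11 differed from the SMARCD1 knockout by 0.05 (adjusted p = 0.897) and TAL1 by 0.03 (SE 0.315, adjusted p = 0.97), and KIF5A reached 19.7 and 21.7 CPM in the SMARCD1 and SMARCD3 knockouts against 12.5 CPM here, differences short of the fold threshold (-0.63 and -0.77). All 3 clones share the wild-type libraries as reference, so these values come from direct contrasts between clones.

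Gene lists were then described by how many members were called and by their median log2 fold change, which over all genes tested was -0.0066 with 1.44% called up and 1.36% down. Collagens and other matrix genes held calls in both directions. Of 20 tested collagens, 2 were called up (COL3A1 and COL5A2) and 2 down (COL11A1 and COL4A3, the latter with -1.30), with a median of 0.26. Of 36 other matrix genes, 4 rose and 3 fell, with a median of 0.32. MATN3, a cartilage matrilin, rose by 1.75 (not called in the fit of the 6 libraries alone, adjusted p = 0.0684) and the microfibril gene MFAP2 by 1.74, the proteoglycan gene VCAN rose by 1.22 and the matricellular gene THBS1 by 1.20, whereas the laminin chain LAMA4 had -2.49 and LAMA3 had -1.02. Among fibroblast markers COL3A1 and THY1 (1.46) were called up of 7 tested, with a median of 0.83. Their summed level was 211 to 229 CPM in the knockout libraries and 110 to 132 CPM in wild type, and PDGFRA, a growth-factor receptor gene, made up most of it (165 ± 10.5 against 92.5 ± 10.1 CPM). The defining fibroblast genes LUM, DCN, FAP and COL1A2 had at most 5 counts in any of the 6 libraries, and the part of such cells in the matrix changes was not tested.

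Calls among cadherins went in 1 direction. Of 25 tested members 5 were called up and none down (median 0.25). CDH3, the P-cadherin of epithelia, rose from 5.27, 3.42 and 6.46 CPM to 13.8, 19.4 and 16.7 CPM (log2 fold change 1.72, SE 0.24, adjusted p = 1.99e-07). The protocadherins PCDH7 (1.27), PCDH19 (1.22) and PCDH17 (1.02) and DCHS1, a large cadherin of planar cell polarity (1.03), were the others; for CDH3, PCDH7, PCDH19 and DCHS1 the libraries of the groups did not overlap. DCHS1 differed little from the other clones (log2 difference 0.30), and 9 of them had higher means. Of 22 epithelial genes, KRT8, a keratin of simple epithelia, rose by 1.10, and the tight-junction gene CLDN1 (-2.17) and the epithelial regulator OVOL2 (-1.64) fell. The calls of KRT8 and OVOL2 depended on the fit. KRT8 was not called without knockout library 1 (0.99) or wild-type library 3 (0.95). OVOL2 was not called in 5 of the 6 fits that left out 1 library, all but that without wild-type library 1 (adjusted p = 0.0706 to 0.23). Its call was also lost with no filter on low counts (adjusted p = 0.0869), with 1 subtracted from every count (0.0657) and with DESeq2 (0.129).

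Genes of neurons and axon guidance were split as well. Of 33 tested neuronal and synaptic genes 3 rose and 5 fell, with a median of -0.40. GAP43, the receptor subunit GABRA5 (2.23) and the secreted guide of migrating neurons RELN (1.23) rose. CNTNAP2, the AMPA receptor subunit GRIA2 (-4.48), the contactin CNTN1 (-3.43), the active-zone gene RIMS2 (-2.62) and the potassium channel gene KCNK2 (-1.21) fell. Of 44 axon guidance genes 3 rose and 4 fell (median 0.13). NTN4, a netrin, went from 2.13, 1.35 and 2.12 CPM to 12.8, 11.8 and 8.57 CPM (log2 fold change 2.56, SE 0.301) and was highest in this clone of all groups, while SEMA3A (-3.73), SEMA3D (-3.09), SLIT3 (-2.31) and EPHB6 (-1.35), which encode repellent cues and an ephrin receptor, fell and SEMA3C (2.04) and EPHA7 (1.30) rose.

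Among 58 developmental transcription factors 6 fell and none was called up (median -0.05). PAX2, a regulator of kidney and midbrain, fell from 82, 89 and 114 counts to 5, 7 and 7 counts (log2 fold change -3.86, SE 0.397, adjusted p = 2.52e-11). All 23 other clones had higher PAX2 means, but BRD7 knockout was close, at 0.363 CPM against 0.312 CPM here. The SMARCD1 and DPF3 knockouts were also low, each at 0.665 CPM. FOXF1, a factor of visceral mesoderm, fell from 6.67, 7.19 and 6.55 CPM to 0.938, 1.31 and 1.15 CPM (-2.59, SE 0.181, adjusted p = 1.11e-17). SOX1 (1, 4 and 3 counts against 5, 11 and 18), HAND2 (-1.26), EYA1 (-1.06) and SIX2 (-1.05) were the other decreases. Of these, SOX1 lost its call without wild-type library 3 (-1.55, adjusted p = 0.0979), HAND2 without knockout library 1 (-0.86, adjusted p = 0.175) or wild-type library 1 (-1.10, adjusted p = 0.0732), and SIX2 fell just short of the fold threshold without knockout library 1 or 2 or wild-type library 3 (-0.96 to -0.98). PAX2, SIX2 and BCHE also belong to the list of HEK293 markers, in which 4 of 11 were called down and LIN28A, an RNA-binding protein of stem cells, was called up (1.05; below the fold threshold without knockout library 1 or wild-type library 1). PRAME, a cancer-testis gene, was the fourth decrease, from 60, 77 and 63 counts to 8, 6 and 6. The summed level of the HEK293 markers was 260 to 284 CPM in the knockout libraries and 217 to 224 CPM in wild type. For A549 markers, of which 2 of 12 were called down, it was 240 to 262 against 221 to 234 CPM, with SFTA2 and SFTPC at the minimum of the table in all 6 libraries. The part of other cell lines in the result was not tested.

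Of 37 tested HOX genes, which set position along the body axis, HOXD13 and HOXD11 rose and HOXC11 fell. HOXD13 stood at 64.8, 65.8 and 62.4 CPM in the SMARCD2 knockout against 21.5, 22.1 and 22.1 CPM in wild type (log2 fold change 1.55, SE 0.0928, adjusted p = 1.66e-20). No other clone had a higher mean, the nearest being PHF10 knockout at 61.2 CPM. HOXD11 was of low abundance, at 20, 14 and 15 counts against 1, 2 and 4. In the WNT pathway, 3 of 29 tested genes fell, namely the receptor FZD10 (at the table's minimum in all knockout libraries and at least 8.08-fold lower), the ubiquitin ligase RNF43 (-1.86) and the secreted inhibitor SFRP1 (-1.72), and the target gene SP5 rose (1.21). FZD10 was below 0.5 CPM in 19 of the 23 other clones, against 1.19 CPM in wild type, and was not called against their mean (log2 difference -1.23, adjusted p = 0.322). The call of SP5 was lost without knockout library 3 or wild-type library 2 or 3 (adjusted p = 0.0532 to 0.107).

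Blood genes were examined because of the known role of SMARCD2 in granulocytes. Of 32 granulocyte genes, 19 had at most 3 counts in all 6 libraries, among them CEBPE, MPO, ELANE and SPI1, which stood at the minimum throughout. None of the 12 tested was called (median -0.10), none passed the test on p alone, and their summed level was 58.6 to 59.7 CPM in the knockout libraries and 49.4 to 60.3 CPM in wild type. CEBPA, a factor of early myeloid cells, had 5.99 ± 1.54 against 5.11 ± 2.42 CPM (log2 fold change 0.24, adjusted p = 0.788), and GFI1, a repressor needed for neutrophils, 0.88 ± 0.158 against 1.26 ± 0.622 CPM (-0.53, adjusted p = 0.435). Of 12 tested blood lineage transcription factors, TAL1 and FLI1 fell, the latter from 7, 9 and 8 counts to 1, 2 and 2 (not called without knockout library 1, adjusted p = 0.0603). GATA2, RUNX1 and the other 8 were not called, and the median of this list was -0.31.

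In antigen presentation 3 of 15 tested genes fell, with a median of -0.20: the class I transactivator NLRC5 (-1.02, adjusted p = 0.0306), the immunoproteasome subunit PSMB8 (-1.72, adjusted p = 0.0305) and the trimming peptidase ERAP2 (-1.46, adjusted p = 0.00271). All were scarce, below 3 CPM in every library, and the calls of NLRC5 and PSMB8 were each lost under 7 alternatives, among them leaving out knockout library 1 or 2 or wild-type library 2. ERAP2 lost its call in the fit of the 6 libraries alone (adjusted p = 0.0562). Of 26 interferon-stimulated genes the RNA sensor IFIH1 fell (-2.19) and IFIT2 rose (1.12; 1.00 without wild-type library 3, short of the threshold). ABCB1, the drug efflux pump P-glycoprotein, fell from 15.3, 13.3 and 10.4 CPM to 1.41, 1.66 and 1.54 CPM (log2 fold change -3.08, SE 0.266, adjusted p = 5.55e-14) and was the only 1 of 12 tested transporters of its list to be called. MYOF, a membrane-repair gene counted among targets of YAP, rose from 4.15, 4.9 and 3.12 CPM to 32.1, 19.8 and 15.1 CPM (2.46, SE 0.29, adjusted p = 1.89e-09).

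Several further lists held no called gene. Over all genes tested 2.8% were called, so a single list of this size would hold few calls or none. This applied to 33 genes of replication and E2F, 30 of mitosis, 24 of cholesterol synthesis, 31 of oxidative phosphorylation, 17 of glycolysis, 40 cytosolic ribosomal proteins, 18 of endoplasmic reticulum stress, 20 of hypoxia, 19 p53 targets, 27 polycomb subunits and 17 integrins. Their medians lay between -0.08 and 0.26. In all, 19 of the 48 lists had no called member.

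**Figure D5:**
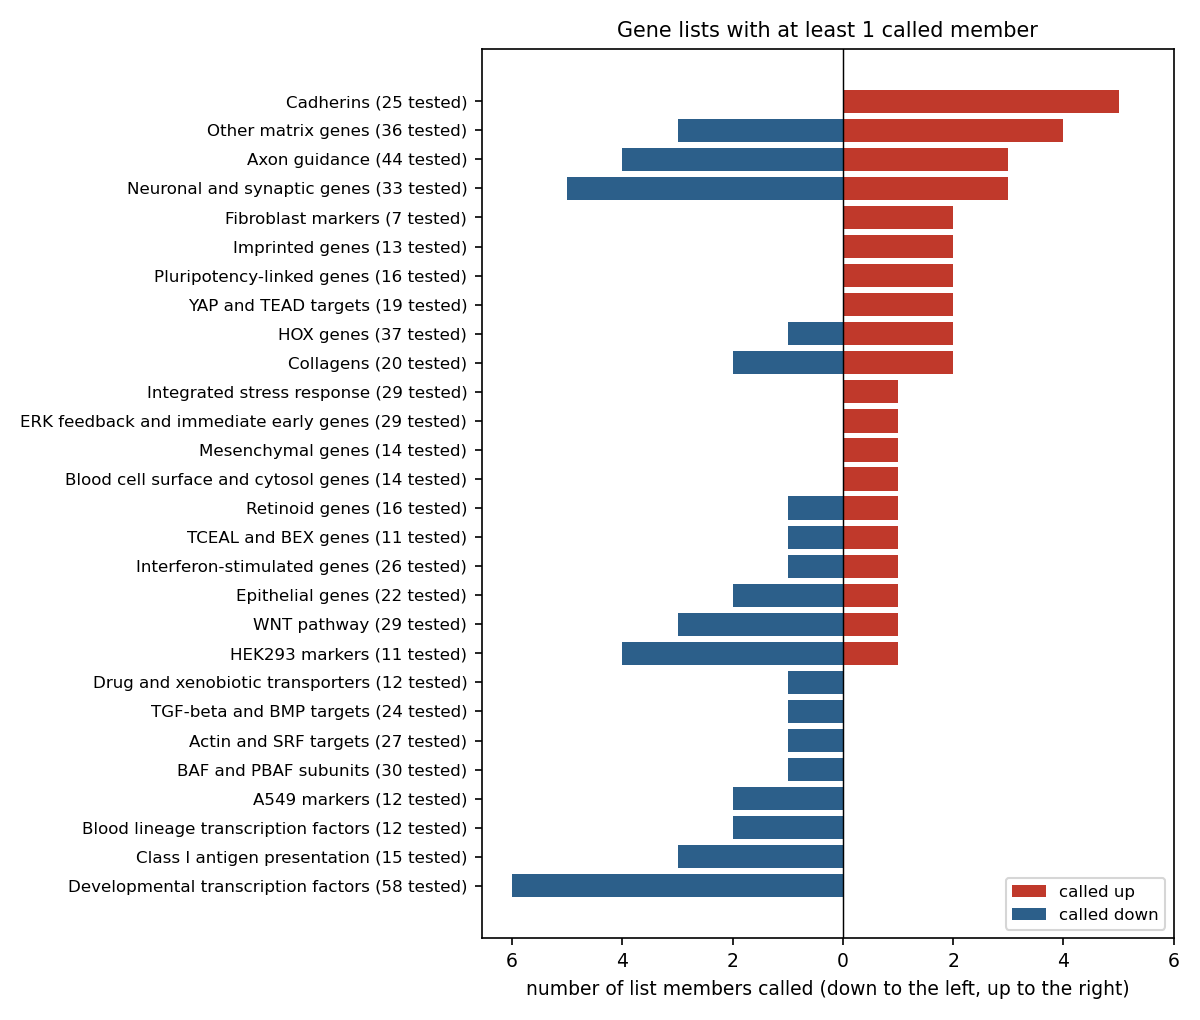
Number of members called down (left, blue) and up (right, red) in the SMARCD2 knockout against wild type, for the gene lists with at least 1 call; the number tested stands beside each name. Cadherins hold 5 calls, all up, and developmental transcription factors 6, all down, while matrix, neuronal and axon guidance lists are split.

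Some called genes lay next to each other. In RefSeq gene order, 29 pairs of called genes with at most 1 tested gene between them changed in the same direction, 13 up and 16 down, which took in 54 of the 441 called genes with a place in that order; the pairs were looked for after the calls were known, and no test was made of their number. COL3A1 and COL5A2, HOXD13 and HOXD11, the imprinted neighbours DLK1 (3.13) and RTL1 (1.48), and GAP43 and LSAMP (1.94), a neural adhesion gene, were pairs that rose. EPHX2, the soluble epoxide hydrolase near SCARA3, rose from 12, 13 and 15 counts to 29, 44 and 40 (log2 fold change 1.51, adjusted p = 6.64e-05). A run that fell held the ectonucleotidases ENPP4 (-3.01) and ENPP5 (-2.49), the sterol hydroxylase CYP39A1 (-3.58) and the mitochondrial carrier SLC25A27 (-2.75). ENPP4, the most abundant of them, stood at 10.93, 10.88 and 10.89 CPM in wild type and at 1.45, 1.31 and 1.30 CPM in the SMARCD2 knockout, and the mean of each of the 23 other clones was higher. The run was not low in this clone alone. ARID1A clones 618-10 and 618-3 had means of 2.34 and 2.46 CPM for ENPP4 and of 0.145 and 0.053 CPM for ENPP5. Their means were 0.162 and 0.140 CPM for CYP39A1 and 0.271 and 0.265 CPM for SLC25A27. FERMT1, an activator of integrins (-1.01), and BMP2, a bone morphogenetic protein (-3.72), SEMA3A and SEMA3D, and the aldo-keto reductases AKR1C1 (-1.45) and AKR1C3 (-2.10) were further pairs that fell. FERMT1 fell short of the fold threshold without knockout library 3 (-0.97), without wild-type library 1 (-0.91) and with no filter on low counts (-0.98), and AKR1C3 lost its call without wild-type library 3 (-1.74, adjusted p = 0.0581). AKR1C1 and AKR1C3 are near relatives in sequence, as are PCDHAC1 (1.66) and PCDHAC2 (1.22), which share exons, so that calls within each pair are not independent. PCDHAC1 was not called without knockout library 3 (adjusted p = 0.0822) or wild-type library 2 (adjusted p = 0.0648).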

How the data were processed

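The authors deposited estimated counts (expected counts) per gene for 75 libraries of 25 groups, already whole numbers with a minimum of 1, and a table of quantile-normalized log2 TPM; per the submitters' processing notes Trimmomatic, Bowtie, Picard and DESeq2 were used with GRCh37 and hg19. Not given in the sources used here are versions, the counting tool, its use of strand and its treatment of shared reads. Of all columns, 8 matched no labelled sample and were not used.

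Low-count genes were removed with filterByExpr and libraries scaled by TMM; a quasi-likelihood model over all 25 groups was fitted with edgeR 4.0.16 in R 4.3.3 and tested on simulated data. Called genes have a Benjamini-Hochberg adjusted p of at most 0.05 and a log2 fold change of 1 or more in size. Contrasts were SMARCD2 knockout against wild type, the other 23 clones, and the SMARCD1 and SMARCD3 knockouts. CPM are counts scaled to the library total, without TMM; intervals cover counting error only, at 95%. Folds near the minimum depend on the prior count, so ratios of counts are given there, with 3 counts as the floor.

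Named genes are the 15 called in each direction with the largest fold whose libraries did not overlap and whose higher group averaged 5 CPM or more, the first 10 in each direction against the other clones, and up to 4 called members per list; 6 without a usual symbol were only counted, and 1 called up is not reported here. Further called members of a list, genes in adjacent pairs and the genes around GTF2H2 were chosen after their values were seen. The members and the 48 lists were chosen with earlier results of these data known. Replicate libraries differed by more than sampling noise (chi-square per degree of freedom 9.54 to 24.7). Alternatives were another normalization, other filters, 1 subtracted from every count, DESeq2 1.42.0, limma 3.58.1 on log2 TPM, a replicate block and leaving out each library.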

Additional observations from a re-analysis of the deposited data

Results flagged for a closer look

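For 61 of the 124 called genes named by the rule, lying in adjacent pairs or lying around GTF2H2, the effect against wild type was called in one direction in the SMARCD2 knockout and in the opposite direction in the SMARCD1 knockout, the SMARCD3 knockout or both, and the direct contrast between the clones was also called (edgeR quasi-likelihood test with Benjamini-Hochberg adjustment). These made 93 contrasts; 32 genes met this against both paralog clones, and 14 of the 61 are among the 15 genes with the largest folds in each direction. The 3 clones share the wild-type libraries, each is a single clone, and groups of 3 libraries were not searched for outlying libraries. Since both effects were called in opposite directions, the call in the direct contrast was nearly fixed in advance and gives no separate support. The 124 genes were not a random draw, and the matching share over all called genes was not counted. For COL11A1, COL5A2, GAP43 and BCHE, levels like those of the paralog knockouts were also seen in the BCL11A and BCL11B knockouts. Below, values are log2 differences, SMARCD2 knockout minus paralog knockout, given for the SMARCD1 and then the SMARCD3 knockout where both qualify.

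The widest gap was that of COL11A1, with -11.21 and -10.78 (adjusted p = 9.41e-53 and 8.9e-52); it lay 3.61 and 3.17 above wild type in the paralog knockouts. The next widest was that of WBP5 against the SMARCD3 knockout (9.45), with 5.79 against the SMARCD1 knockout (adjusted p = 2.67e-41 and 5.89e-37 in that order). The collagen genes COL3A1 (7.39 and 7.21) and COL5A2 (6.40 and 6.34) ran the other way from COL11A1, and in the paralog knockouts they lay below wild type, with log2 fold changes of -3.14 and -3.08 for COL5A2 and of -3.28 and -3.10 for COL3A1.

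Of the genes that rose in the SMARCD2 knockout, those higher than in both paralog knockouts included GAP43 (7.19 and 7.06), FCGRT (6.65 and 6.77), DCAF12L2 (5.87 and 4.53), NMNAT2 (6.56 and 6.93) and SLC10A2 (6.55 and 5.71). In the paralog clones NMNAT2 had log2 fold changes of -4.22 and -4.59 against wild type. Further genes higher than in both were MFAP2 (6.18 and 6.30), PCDH7 (5.49 and 2.59), MYOF (4.35 and 4.64), TDGF1 (3.12 and 3.32), LIN28A (5.84 and 6.21), EPHX2 (3.28 and 3.68), MAMDC2 (5.49 and 4.91), PCDHAC2 (3.71 and 4.83) and SNX19 (6.69 and 4.94). Only the contrast with the SMARCD1 knockout qualified for SHISA2 (5.68), DLK1 (6.75), THY1 (3.58), PCDH19 (2.57), KRT8 (2.84) and C9orf135 (5.77). Only that with the SMARCD3 knockout qualified for TIAM1 (6.92), CDH3 (4.32), CRABP2 (2.67), SPSB4 (2.49) and ZFR2 (3.13).

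Of the genes that fell, those lower than in both paralog knockouts included STAC (-7.64 and -7.85), BCHE (-7.84 and -8.62), FBXO17 (-7.02 and -6.50), SNTB1 (-4.90 and -5.18), MYOM1 (-5.08 and -4.23) and ABCB1 (-4.89 and -4.37). STAC and BCHE are at or near the table's minimum in the SMARCD2 knockout, so the size of their fitted differences depends on the prior count. Further genes lower than in both were SFRP1 (-2.90 and -2.87), ERAP2 (-2.48 and -2.46), FOXF1 (-3.80 and -3.95), SOX1 (-3.28 and -4.87), CYP39A1 (-4.84 and -4.78), FAM111A (-2.30 and -2.42), GALNT5 (-5.41 and -6.75) and SLC25A27 (-4.45 and -4.03). Only the contrast with the SMARCD1 knockout qualified for COL4A3 (-2.53), IFIH1 (-3.39), NLRC5 (-2.60), HOXC11 (-6.68) and ENPP5 (-4.17). Only that with the SMARCD3 knockout qualified for FLI1 (-3.998), LAMA4 (-4.54), CLDN1 (-4.12), GRIA2 (-6.95), CNTN1 (-6.35), SEMA3A (-5.36), HAND2 (-3.02), AKR1C3 (-4.63), PRAME (-5.83), CHRM3 (-3.85), LRRK2 (-2.64), NR4A2 (-4.04) and SNTG2 (-2.77). The call of CHRM3 against wild type was lost under 7 alternatives, among them DESeq2 and leaving out any knockout library. That of LRRK2 was lost in the fit of the 6 libraries alone (adjusted p = 0.0743) and without wild-type library 1 (adjusted p = 0.0754).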

How the results depend on the processing

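Under the alternatives run for each comparison, the numbers of called genes stayed within 1.5 times the reported ones, except that without the fold threshold 654 genes were higher and 497 lower than wild type. Against wild type, fitting the 6 libraries alone called 166 up and 152 down, DESeq2 213 and 203, limma on the authors' log2 TPM 240 and 240, and leaving out a library 209 to 224 and 192 to 215. SMARCD2 mRNA stayed called throughout, with log2 fold changes from -1.95 to -1.76. Of 123 named genes called, 93 stayed called under every alternative that gave a value, 30 lost the call under at least 1, and none reversed; 14 lost it in the fit of the 6 libraries alone. Of 21 named genes not called, NAIP was called without knockout library 2 (-1.13). Whether the replicate numbers pair the samples is unclear. The deviations of same-numbered libraries correlated at 0.302, -0.0251 and 0.36. Knockout libraries 1 and 3 correlated best with the wild-type library of the same number, but knockout library 2 correlated best with wild-type library 3 (0.147). A fit with the replicate block called 235 up and 229 down and lost none of the named calls. Depth limits the genes near the minimum of 1 count, where folds are given as ratios of counts or as bounds. With 1 clone per genotype, differences between clones of the same genotype were not measured for SMARCD2.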
